A study of Mus musculus with 5 samples.

Results

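The organic ion and drug transporters are the membrane carriers that move drugs, toxins, hormones and metabolic waste into and out of cells, and in the kidney they carry out tubular secretion. They were taken by symbol, with earlier results of these data known. The genes of the deposited expression table named Slc22a, Slco, Slc47a, Abcb or Abcc with a number were all included. Of the Abcg genes, only Abcg2, Abcg3, Abcg4, Abcg5 and Abcg8 were taken. This gave 66 of the 21878 genes in the table. Of these, 39 belong to the uptake families (25 Slc22a and 14 Slco genes) and 27 to the efflux families (2 Slc47a, 10 Abcb, 10 Abcc and 5 Abcg genes).

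All 5 libraries came from kidneys of NZB/NZW F1 mice, a hybrid of NZB/BINJ mothers and NZW/LacJ fathers that develops spontaneous lupus-like kidney disease, so the vehicle animals carry that background too. The treated group received diosmetin, a plant flavonoid, by injection into the peritoneum at 50 mg/kg on alternate days over 6 weeks (3 libraries), and the control group received vehicle on the same schedule (2 libraries). The labels do not give age, sex, the composition of the vehicle, or whether a library came from 1 animal or several, so p-values measure the spread between these libraries, which may be partly technical. Values are FPKM (fragments scaled to transcript length and to the library's total), and differences are diosmetin minus vehicle on the log2(FPKM + 1) scale, which understates the change of low genes.

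A proximal tubule cell secretes an organic ion in series: a carrier on the blood side brings it in, and a pump or exchanger on the urine side passes it out. Organic anion transporters (OATs) of the SLC22 family exchange their substrates for dicarboxylates held in the cell, organic cation transporters (OCTs) of the same family are driven by the membrane voltage, and OATPs of the SLCO family take up larger amphipathic anions. On the efflux side, MATE proteins of the SLC47 family exchange cations for protons, and ABC proteins hydrolyse ATP to export drugs and conjugates. The families are not uniform in this respect: some SLC22 proteins reabsorb urate or carnitine from the urine, some ABCB proteins sit in mitochondria or lysosomes, and Abcc8 and Abcc9 encode regulatory subunits of potassium channels.

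Estimated depth was 38.4 and 48.6 M fragments for the vehicle libraries and 43.0 to 46.9 M for the diosmetin libraries. Kidney markers were abundant in every library, and the 4 Y-linked genes measured (Ddx3y, Eif2s3y, Kdm5d and Uty) did not exceed 0.0409 FPKM in any library. The test was limma over the 13290 genes with a mean of at least 0.5 FPKM, two-sided, with Benjamini-Hochberg adjustment over all of them. No gene in the table passed an adjusted p of 0.05 (0.0% of genes tested; smallest adjusted p = 0.738), while 847 genes (6.37%) had an unadjusted p under 0.05. No transporter therefore passed the test, and the differences that follow are described by their values, their spread and their counts.

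Of the 66 transporters, 44 passed the filter on low values. Their median difference was -0.14, beside 0.04 for all genes tested, and 32 of the 44 had a lower mean in diosmetin than in vehicle kidneys, beside 36.1% of all genes tested. The other 12 had a higher mean, beside 63.9% of all genes. These shares of all genes, used throughout, depend on the scaling. The median over all genes was -0.004 under median-of-ratios scaling and 0.007 after quantile normalization, with 35 of 44 transporters lower in each. The differences ranged from -0.74 (Slc22a26) to 0.21 (Slc22a12). In bulk kidney RNA, fewer cells of a type and less RNA per cell cannot be told apart. 5 of the 44 had an unadjusted p under 0.05 with a lower mean in diosmetin kidneys, beside 1.69% of all genes tested, and 0 had one with a higher mean, beside 4.68%. In 8 of the 44 every diosmetin value was below both vehicle values, beside 6.17% of all genes tested, and in 0 every diosmetin value was above, beside 18.3%. Both counts changed when 1 diosmetin library was left out. The first was 3 without replicate 2 and 11 without replicate 1. Over all genes, in either direction, 385 of 13268 and 1193 of 13295 had an unadjusted p under 0.05 by limma in those fits. The number of transporters with no overlap, in either direction, was 12 under median-of-ratios scaling and 12 after quantile normalization. It was 21, 9 and 16 without diosmetin replicates 1, 2 and 3, and it also rose when either vehicle library was left out. Groups separate more easily when fewer libraries are compared, so a rise in that number is not a result about the transporters.

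The most abundant carriers included genes of both the uptake and the efflux families. The urate and anion exchanger Slc22a12 (URAT1) had the highest mean level, at 392 FPKM, and among those next in level were Slc47a1 at 185, Slc22a8 at 176, Slc22a6 at 152, Abcg2 at 138 and Slco1a6 at 128. Of those named, neighbours in this order overlapped in their values over the 5 libraries, except that Slc22a12 lay above every other member in every library. Of the 22 transporters under the filter, 3 (Abcb5, Slco6c1 and Slco6d1) were listed at 0 in all libraries, as were 3733 genes of the whole table.

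**Figure D1:**
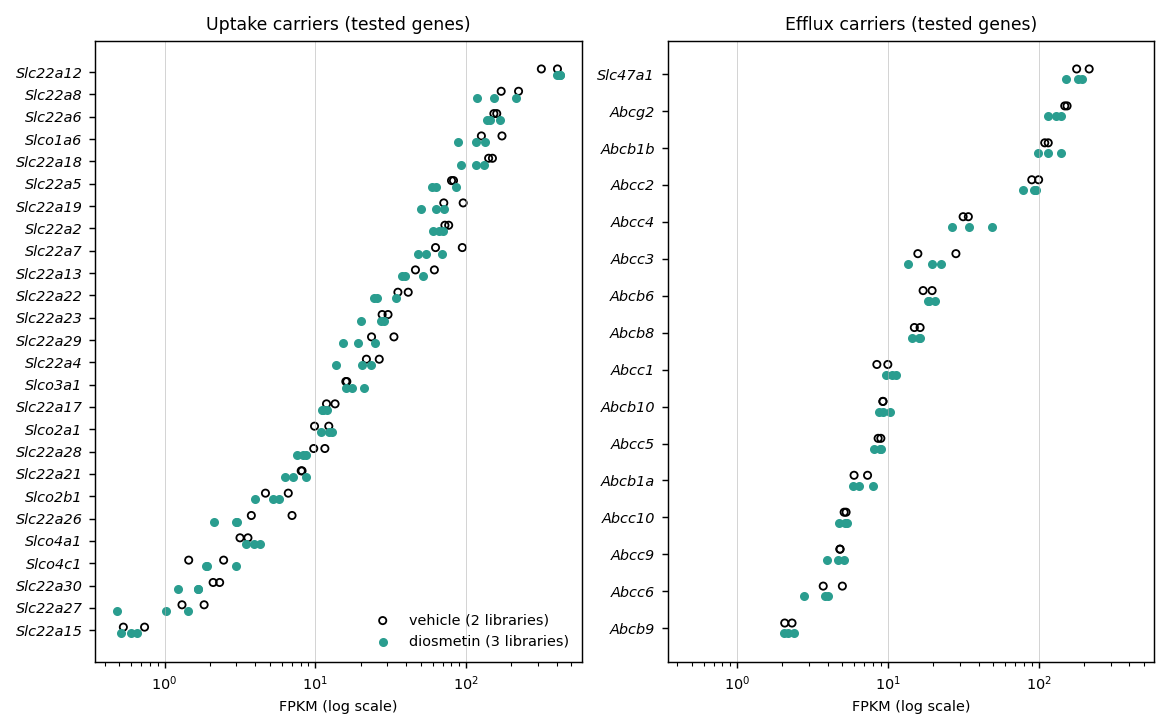
FPKM (log axis) of tested uptake (left) and efflux (right) carriers, ordered by mean level, with 1 point per library and vehicle and diosmetin libraries marked apart. Slc22a12 is highest in all 5 libraries, from 316 to 418 FPKM, and for most genes the points of the groups overlap.

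The carriers grouped as blood-side uptake were all lower on average in diosmetin kidneys. This held for 6 of the 6 tested, with a median difference of -0.25 and a range of -0.45 to -0.07, and none passed the adjusted test. Without diosmetin replicate 2 all 6 were still lower, with a median of -0.12. Slc22a6 encodes OAT1, which takes up para-aminohippurate and many anionic drugs, and measured 159.9 and 153 FPKM in the vehicle libraries and 167, 138 and 144 in the diosmetin libraries. The groups overlapped, and its difference of -0.07 ± 0.10 (SE) was smaller than its error. Slc22a8 encodes OAT3, the other main anion entry route, and measured 223 and 171 FPKM in vehicle and 213, 118 and 154 in diosmetin kidneys, a difference of -0.31 ± 0.25 (SE). Diosmetin replicate 2 was the lowest library and vehicle replicate 1 the highest, and the first diosmetin library lay between the vehicle values. Without diosmetin replicate 2 the Slc22a8 difference was -0.11, and without vehicle replicate 1 -0.12.

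Among the cation carriers, Slc22a2 encodes OCT2, a renal entry route for metformin and cisplatin. It measured 72.5 and 76.7 FPKM in vehicle and 70.9, 60.1 and 65.7 in diosmetin kidneys. All 3 diosmetin values lay below both vehicle values, and the difference was -0.19 ± 0.09 (SE), with an adjusted p of 0.738 by limma.

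Slc22a22 encodes OAT-PG, a prostaglandin carrier of mouse kidney. It measured 41.4 and 35.3 FPKM in vehicle kidneys (mean 38.4 ± 4.26, SD, n = 2) and 34.1, 24.6 and 25.6 in diosmetin kidneys (mean 28.1 ± 5.24, SD, n = 3). The groups did not overlap, and the difference was -0.45 ± 0.15 (SE), with an adjusted p of 0.738 by limma. Slc22a7 encodes OAT2, which in rodent kidney has been placed on the urine side, and measured 62.8 and 94.5 FPKM in vehicle and 48.2, 54.7 and 69.5 in diosmetin kidneys. Here vehicle replicate 2 was highest and diosmetin replicate 1 lowest, unlike in Slc22a8, and the groups overlapped, with a difference of -0.43 ± 0.21 (SE) that was -0.14 without vehicle replicate 2. Slc22a3 (OCT3), of the same group, did not reach the filter.

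Carriers of the urine-side membrane differed in direction. Slc22a12, through which urate and other anions are reabsorbed, was the only one of the 21 tested Slc22a genes with a higher mean in diosmetin kidneys. It measured 316 and 404 FPKM in vehicle and 404, 418 and 417 in diosmetin kidneys, a difference of 0.21 ± 0.12 (SE). The first vehicle library was the low one, and the other vehicle library matched the lowest diosmetin value. Without vehicle replicate 1 the difference was 0.03, and without vehicle replicate 2 it was 0.39. The other 5 tested genes of this group were lower on average, and the median over all 6 was -0.28, or -0.16 without diosmetin replicate 2.

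Slc22a5 encodes OCTN2, which retains carnitine by sodium-coupled uptake, and measured 82.6 and 80.1 FPKM in vehicle and 86.2, 62.9 and 59.8 in diosmetin kidneys. Diosmetin replicate 1 was above both vehicle libraries and the other 2 diosmetin libraries were below them, so the groups overlapped around a difference of -0.24 ± 0.16 (SE). Slc22a19 encodes the rodent carrier OAT5 and measured 71.2 and 95.7 FPKM in vehicle and 50.4, 63.5 and 71.7 in diosmetin kidneys, a difference of -0.43 ± 0.18 (SE) that was -0.21 without vehicle replicate 2. Only diosmetin replicate 3 reached the lower vehicle value, by less than 1 FPKM. Slc22a13 (OAT10, a urate and nicotinate carrier), Slc22a4 (OCTN1, an ergothioneine carrier) and Slc22a21 (OCTN3, a mouse carnitine carrier) differed by -0.32, -0.35 and -0.14, with overlapping groups. How reads were divided between close relatives is uncertain, since 28.7% of the 75-base stretches of Slc22a13 occur in another annotated gene, as do 17.1% of those of Slc22a5 and 14.2% of those of Slc22a21, the latter pair sharing them with each other.

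A block of OAT-like genes known from rodents held the lowest differences of any transporter, those of Slc22a26 and Slc22a29. All 5 tested genes (Slc22a26, Slc22a27, Slc22a28, Slc22a29 and Slc22a30) were lower on average, with a median difference of -0.40 and a range of -0.74 to -0.34. All 5 were highest in vehicle replicate 1, and without it the median was -0.26 and the range -0.37 to -0.23. 3 of the 5 (Slc22a26, Slc22a28 and Slc22a30) had an unadjusted p under 0.05, beside 1.69% of all genes tested in that direction. The proteins they encode are less well characterised than OAT1 and OAT3.

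Slc22a26 measured 7.01 and 3.77 FPKM in vehicle and 2.13, 2.98 and 3.04 in diosmetin kidneys, and the first vehicle library stood far above the rest. Its difference of -0.74 ± 0.24 (SE) had an adjusted p of 0.738 by limma, and became -0.37 when vehicle replicate 1 was left out and -1.12 when vehicle replicate 2 was. Slc22a28 measured 11.6 and 9.77 FPKM in vehicle and 7.52, 8.72 and 8.29 in diosmetin kidneys, a difference of -0.34 ± 0.10 (SE) with an adjusted p of 0.738 by limma. Slc22a30 was the least abundant of the 3, at 2.32 and 2.10 FPKM in vehicle and 1.67, 1.66 and 1.24 in diosmetin kidneys, a difference of -0.35 ± 0.13 (SE). In each of these 3 genes the diosmetin values lay below both vehicle values, beside 6.17% of all genes tested. The 3 were picked for a small unadjusted p by limma, so their separation is not added evidence. Slc22a29 measured 33.3 and 23.6 FPKM in vehicle and 25.0, 15.4 and 19.3 in diosmetin kidneys, and its groups overlapped at a difference of -0.50 ± 0.22 (SE). Slc22a27 was the scarcest, with a mean of 1.21 FPKM, and differed by -0.40 ± 0.23 (SE), with overlapping groups.

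These genes lie together on chromosome 19 with Slc22a19, Slc22a8 and Slc22a6. The 8 genes span chr19:7673075-8628299 in GRCm38.p6, as whole gene spans in RefSeq, and all 8 of 8 were lower on average, with a median of -0.37. No other tested gene lay inside the span. Of 36 other tested genes in the 500000 bases on either side, 10 were lower and the median was 0.06. Lower means were not limited to the block. Over all tested Slc22a genes, 20 of 21 were lower, beside 36.1% of all genes tested, with a median of -0.32. Of 21 tested markers of the early proximal tubule, 19 were lower, with a median of -0.31. In the block, 6 of the 8 genes were highest in vehicle replicate 1. The span was drawn after the values were seen, and Slc22a12, which was higher, lies outside it on the same chromosome at chr19:6535854-6543070.

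**Figure D2:**
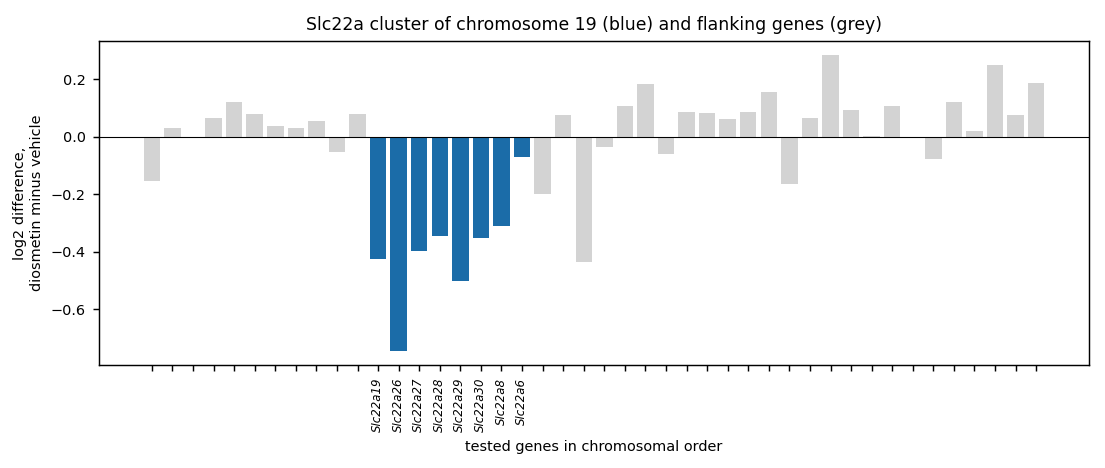
Log2(FPKM + 1) difference, diosmetin minus vehicle, of each tested gene in and around the 8-gene Slc22a block, as bars in chromosomal order, with the block genes named and in blue and flanking genes in grey. All 8 block genes lie below 0, with a median of -0.37, and the 36 flanking genes scatter around 0.06.

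The near-copies among these genes can be seen in the sequence before their starts. Promoter windows (the 250 bases before the annotated start, from RefSeq, GRCm38.p6) were found for 53 of the 66 transporters. The annotated start of a window need not be the outer end of the whole gene span: that of Slc22a30 lies 6 bases inside it, that of Slc22a8 1928 bases inside and that of Slc22a29 34475 bases inside. When aligned, the windows of Slc22a28 and Slc22a30 were identical at 238 bases, or 95.2% of the window length of 250. The share was 73.2% for Slc22a28 with Slc22a29 and 72.8% for Slc22a29 with Slc22a30. Windows are shown for Slc22a28 and Slc22a30, which carried 2 of the 5 smallest unadjusted p-values, with capitals for the bases left unmatched between them. The windows are offset, so the capitals TAACTC and TAACTT are bases with no partner in the alignment. Both lie on the minus strand, at chr19:8131983-8132232 for Slc22a28 and chr19:8405106-8405355 for Slc22a30.
Slc22a28: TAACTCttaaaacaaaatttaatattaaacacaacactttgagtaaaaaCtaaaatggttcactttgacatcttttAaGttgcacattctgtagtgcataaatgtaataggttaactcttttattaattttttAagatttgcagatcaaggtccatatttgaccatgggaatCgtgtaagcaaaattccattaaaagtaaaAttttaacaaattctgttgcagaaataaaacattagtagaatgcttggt
Slc22a30: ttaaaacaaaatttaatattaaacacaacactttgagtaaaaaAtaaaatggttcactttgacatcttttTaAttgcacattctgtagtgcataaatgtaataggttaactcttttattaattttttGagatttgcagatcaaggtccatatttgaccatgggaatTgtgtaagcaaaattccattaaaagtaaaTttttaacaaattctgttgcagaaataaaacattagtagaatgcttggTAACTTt
The same likeness holds within the transcripts: 44.8% of the 75-base stretches of Slc22a28 and 26.7% of those of Slc22a30 also occur in another gene of the GENCODE annotation, mostly in each other. Their separate FPKM values, and to a lesser degree those of Slc22a27 (16.3%) and Slc22a29 (15.8%), are therefore uncertain, since how the authors assigned shared reads is not given in the sources used here.

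All promoter windows were also searched for GTTAAT, the core of the site bound by HNF1 transcription factors, which are known to drive many proximal tubule transporter genes. On either strand it occurred in 6.43% of all 32851 promoter windows and in windows of 4 of the 53 transporters, Slc22a6, Slc22a8, Slc22a29 and Slco1b2. The share counts windows, while the transporters are counted as genes with the core in any of their windows, so the units are unlike. The full HNF1 palindrome, with both copies of this core, occurred in none of the 53. The 3 windows from the chromosome 19 block that hold the core are shown with it in capitals, at chr19:8592932-8593181 on the plus strand for Slc22a8, chr19:8617746-8617995 on the plus strand for Slc22a6 and chr19:8218901-8219150 on the minus strand for Slc22a29.
Slc22a8: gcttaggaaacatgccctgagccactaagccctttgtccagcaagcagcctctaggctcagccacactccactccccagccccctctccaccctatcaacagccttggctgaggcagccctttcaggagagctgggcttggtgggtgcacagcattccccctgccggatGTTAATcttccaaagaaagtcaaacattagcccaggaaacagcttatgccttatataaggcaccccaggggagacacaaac
Slc22a6: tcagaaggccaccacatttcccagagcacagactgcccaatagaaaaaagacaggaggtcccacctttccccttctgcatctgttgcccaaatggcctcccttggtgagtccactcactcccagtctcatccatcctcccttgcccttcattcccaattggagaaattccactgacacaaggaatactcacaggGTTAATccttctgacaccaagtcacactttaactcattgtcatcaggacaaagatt
Slc22a29: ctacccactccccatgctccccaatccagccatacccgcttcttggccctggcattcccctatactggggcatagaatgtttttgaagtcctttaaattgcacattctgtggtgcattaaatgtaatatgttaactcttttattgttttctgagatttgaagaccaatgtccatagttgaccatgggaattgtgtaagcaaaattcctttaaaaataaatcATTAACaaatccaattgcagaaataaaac
A match of these letters is a description of the sequence and says nothing of binding in these kidneys. Of the 3, Slc22a29 had a difference of -0.50, Slc22a8 of -0.31 and Slc22a6 of -0.07.

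Among the SLC22 genes of other or uncertain substrate, all 4 tested were lower on average, with a median of -0.17 (-0.09 without diosmetin replicate 2). Slc22a18 was the most abundant, at 149.7 and 141 FPKM in vehicle and 132, 93.3 and 117 in diosmetin kidneys, and its groups did not overlap. The difference was -0.36 ± 0.15 (SE) (-0.22 without diosmetin replicate 2), with an adjusted p of 0.738 by limma. Slc22a17, which encodes a receptor for the iron-carrying protein lipocalin 2, differed by -0.14, Slc22a23 by -0.21 and Slc22a15 by -0.04. Over the whole family 20 of 21 tested genes were lower on average, with a median of -0.32. Without diosmetin replicate 2 it was still 20 of 21, with a median of -0.18.

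The OATPs were mixed in direction. Of 14 Slco genes 6 passed the filter, with a median of 0.13. Of those, 4 had a higher mean in diosmetin kidneys, beside 63.9% of all genes tested, and 2 a lower mean, beside 36.1%. The count was 3 of 6 lower without vehicle replicate 1 (median 0.02) or without diosmetin replicate 3 (median 0.05). Slco1a6 was the most abundant by far, at 126 and 173 FPKM in vehicle and 88.7, 117 and 133 in diosmetin kidneys, with vehicle replicate 2 highest and diosmetin replicate 1 lowest. Its groups overlapped at a difference of -0.41 ± 0.20 (SE), which was -0.18 without vehicle replicate 2. Slco1a1, which is driven by androgen in male mouse kidney, was almost absent, at 0.322 and 0.534 FPKM in vehicle and 0.258, 0.264 and 0.296 in diosmetin kidneys, under the filter.

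Slco2a1 encodes the prostaglandin transporter and measured 9.89 and 12.3 FPKM in vehicle and 11.0, 12.9 and 12.3 in diosmetin kidneys, a difference of 0.11 ± 0.11 (SE). Slco4c1, a blood-side OATP of the kidney known as a route for digoxin, measured 1.45 and 2.47 FPKM in vehicle and 1.92, 1.88 and 2.96 in diosmetin kidneys, a difference of 0.15 ± 0.21 (SE). The groups overlapped in both genes, and both differences turned negative without vehicle replicate 1 (-0.03 for Slco2a1 and -0.11 for Slco4c1). Slco3a1, Slco4a1 and Slco2b1 differed by 0.16, 0.16 and -0.15.

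On the efflux side, differences were smaller and of mixed sign. Of 17 tested genes 10 had a lower mean in diosmetin kidneys, beside 36.1% of all genes tested, and 7 a higher mean, beside 63.9%. Their median was -0.02, beside 0.04 for all genes tested, and their range -0.24 to 0.18. None had an unadjusted p under 0.05, and in 2 of the 17, Abcg2 among them, every diosmetin value was below both vehicle values, beside 6.17% of all genes tested. The cation exchanger Slc47a1 (MATE1), which completes the route begun by OCT2, measured 217 and 179 FPKM in vehicle and 194, 151 and 184 in diosmetin kidneys. Its groups overlapped, and the difference was -0.17 ± 0.14 (SE), or -0.03 without vehicle replicate 1. The second MATE gene, Slc47a2, was under the filter.

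Abcg2 encodes BCRP, a pump for urate, sulfate conjugates and drugs on the urine-side membrane. It measured 155 and 149 FPKM in vehicle kidneys (mean 152 ± 3.79, SD, n = 2) and 141, 115 and 131 in diosmetin kidneys (mean 129 ± 13.2, SD, n = 3). All 3 diosmetin values lay below both vehicle values, with a difference of -0.24 ± 0.10 (SE) (-0.16 without diosmetin replicate 2) and an adjusted p of 0.738 by limma. The other 4 Abcg genes were under the filter.

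P-glycoprotein, the multidrug efflux pump, is encoded in mice by Abcb1a and Abcb1b. Abcb1b was the more abundant form, at 116 and 109.9 FPKM in vehicle and 141, 99.6 and 115 in diosmetin kidneys, and diosmetin replicate 1 was above and replicate 2 below every vehicle value. Abcb1a measured 7.34 and 5.97 FPKM in vehicle and 7.93, 5.89 and 6.47 in diosmetin kidneys. The differences were 0.06 ± 0.14 (SE) and 0.02 ± 0.14 (SE), both within their errors, and without diosmetin replicate 1 they were -0.07 and -0.09. Abcb1a also turned negative, at -0.03, under median-of-ratios scaling and under quantile normalization. The pair share sequence (12.5% of the 75-base stretches of Abcb1a occur in another gene, mostly Abcb1b), so their separate levels are uncertain.

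Among the multidrug resistance proteins, Abcc2 (MRP2, an exporter of glutathione and glucuronide conjugates into urine) measured 100.1 and 90.1 FPKM in vehicle and 93.1, 79.3 and 96.8 in diosmetin kidneys, a difference of -0.09 ± 0.10 (SE). Abcc4 (MRP4, which exports cyclic nucleotides, urate and prostaglandins) measured 34.2 and 31.6 FPKM in vehicle and 49.0, 26.7 and 34.5 in diosmetin kidneys. Diosmetin replicate 1 was the high library of Abcc4, and the difference of 0.11 ± 0.23 (SE) became -0.11 without it. Abcc3, a blood-side exporter of glucuronides, and Abcc1, a broad exporter of glutathione conjugates, differed by -0.21 and 0.18, and Abcc5 and Abcc10 by -0.02 and -0.02. Over the 9 drug-exporting ABC genes, all tested, 5 were lower and 4 higher on average, with a median of -0.02, beside 36.1% of all genes lower.

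The 5 tested genes for intracellular Abcb proteins, which handle heme, iron-sulfur intermediates and peptides in mitochondria and lysosomes, had a median difference of 0.00. The differences of Abcb6, Abcb8, Abcb9 and Abcb10 lay between -0.00 and 0.06. For Abcb6, 47.5% of the 75-base stretches also occur in another annotated gene, so its level is uncertain. Abcc6, whose loss causes ectopic mineralization, differed by -0.24 ± 0.17 (SE), and the potassium channel subunit Abcc9 by -0.07. The bile salt pump Abcb11, the phospholipid floppase Abcb4 and the sterol pair Abcg5 and Abcg8, all best known from liver, were under the filter.

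**Figure D3:**
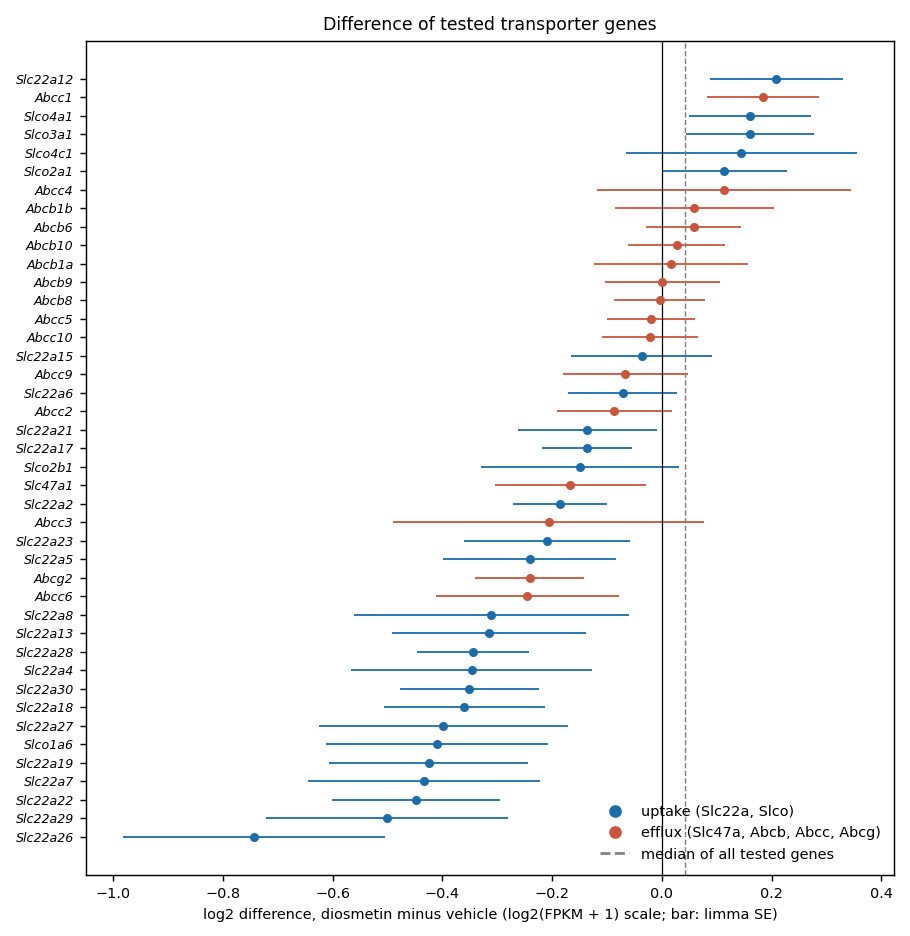
Log2(FPKM + 1) difference, diosmetin minus vehicle, of tested transporters with the standard error from limma, ordered by size and coloured by class; the dashed line is the median of all genes tested. Uptake genes run from -0.74 to 0.21 and efflux genes from -0.24 to 0.18, with no gene past an adjusted p of 0.05.

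Set side by side, uptake carriers had a median difference of -0.24 (22 of 27 lower, 5 higher) and efflux carriers one of -0.02 (10 of 17 lower, 7 higher). The uptake families were unlike: Slc22a genes had a median of -0.32 (20 of 21 lower, 1 higher) and Slco genes one of 0.13 (2 of 6 lower, 4 higher). Of all genes tested, 36.1% were lower, with a median of 0.04. The uptake and efflux medians differed by -0.22, a description to which no test was applied. Without diosmetin replicate 2 the uptake median was -0.13, and it differed from the efflux median by -0.13. Of the 27 uptake genes 6 had diosmetin values below both vehicle values, and of the 17 efflux genes 2, beside 6.17% of all genes tested. When SLC22 genes of other or uncertain substrate were left out, and only MATE and drug-exporting ABC genes kept for efflux, the medians were -0.31 over 23 uptake and -0.02 over 10 efflux genes, a difference of -0.29. Summed over all members of a class, uptake carriers reached 1753 and 1844 FPKM in the vehicle and 1704, 1483 and 1647 in the diosmetin libraries, and efflux carriers 738 and 691 FPKM in the vehicle and 734, 596 and 683 in the diosmetin libraries. The summed groups did not overlap for uptake carriers and overlapped for efflux carriers. The ratio of uptake to efflux sums was 2.37 and 2.67 in vehicle and 2.32, 2.49 and 2.41 in diosmetin kidneys, so it overlapped too.

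**Figure D4:**
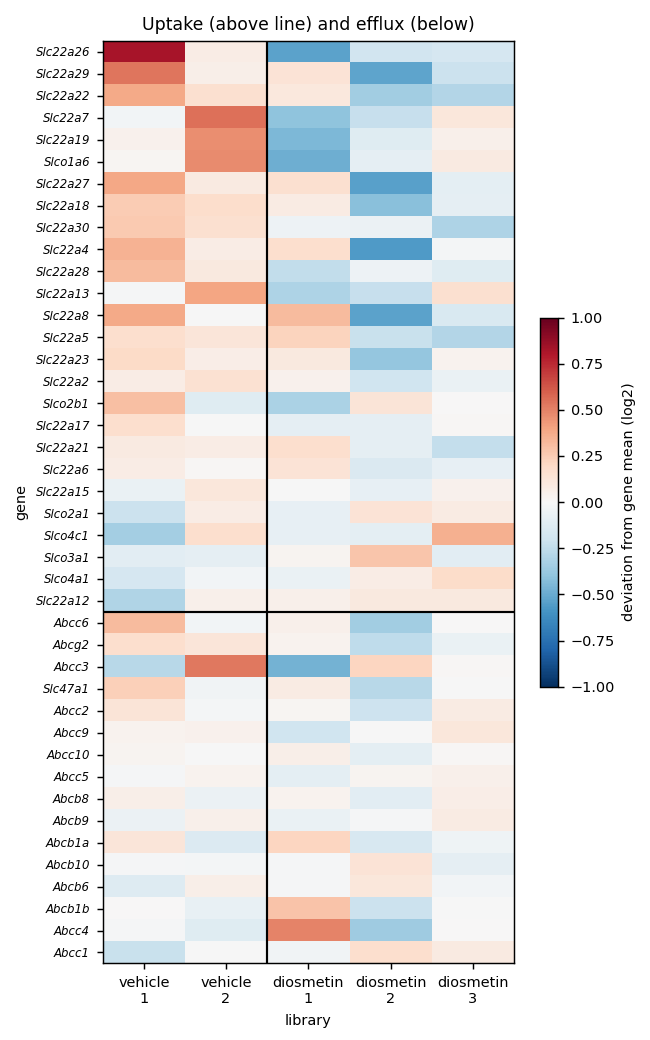
Deviation of log2(FPKM + 1) from each gene's mean over the 5 libraries, for tested transporters (rows, uptake above the line and efflux below it) in each library (columns). Many uptake genes are highest in vehicle replicate 1 and lowest in diosmetin replicate 2, while a smaller group, such as Slc22a7, Slc22a19 and Slco1a6, is highest in vehicle replicate 2 and lowest in diosmetin replicate 1.

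The libraries did not contribute evenly. 13 of the 44 tested transporters (29.5%) were highest in vehicle replicate 1 and lowest in diosmetin replicate 2, an ordering found in 795 (5.98%) of all genes tested. They included Slc22a4, Slc22a8, Slc22a17, Slc22a18, Slc22a22, Slc22a23, Slc22a27, Slc22a29, Slc47a1, Abcc2, Abcc6 and Abcg2. Another 5 (Slc22a7, Slc22a13, Slc22a19, Slco1a6 and Abcc3; 11.4%) were highest in vehicle replicate 2 and lowest in diosmetin replicate 1, an ordering of 512 (3.85%) of all genes.

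Markers of the proximal tubule, the segment that holds most of these carriers, varied between the same libraries. Of 21 tested markers of its early part, such as the glucose carrier Slc5a2 and the phosphate carrier Slc34a1, 18 were also highest in vehicle replicate 1 and lowest in diosmetin replicate 2. 19 of the 21 were lower on average in diosmetin kidneys, with a median of -0.31 that was -0.19 without vehicle replicate 1, -0.21 without diosmetin replicate 2 and -0.54 without vehicle replicate 2. Their summed level was 6901 and 5357 FPKM in vehicle and 5723, 4202 and 4873 in diosmetin libraries. Of 18 markers of the late part, 2 had that ordering and 7 were highest in vehicle replicate 2 and lowest in diosmetin replicate 1. 15 of the 18 were lower on average, with a median of -0.18. Without diosmetin replicate 1 this became 9 of 18 with a median of -0.01, and without vehicle replicate 2 it became 10 of 18 with a median of -0.07. Their sum was 7470.1 and 8610.0 FPKM in vehicle and 7473, 6353 and 6814 in diosmetin libraries. The summed groups overlapped for both marker lists. No defining marker of the proximal tubule was at 0, and the part of proximal tubule content in the transporter differences was not tested.

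**Figure D5:**
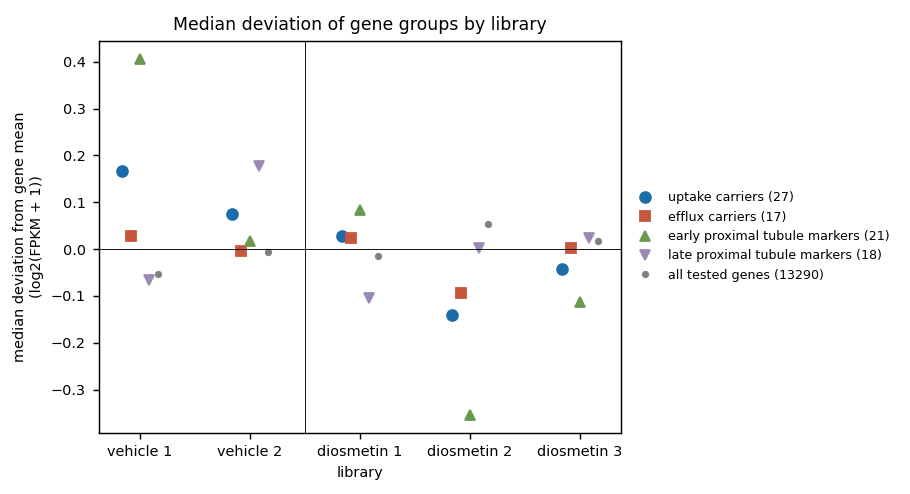
Median deviation of log2(FPKM + 1) from the gene mean, in each library, for uptake carriers, efflux carriers, early and late proximal tubule markers and all genes tested. Uptake carriers run from 0.17 in vehicle replicate 1 to -0.14 in diosmetin replicate 2, and early proximal tubule markers from 0.41 to -0.35 in the same libraries.

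By library, the median deviation of uptake carriers from their gene means was 0.17 and 0.08 in vehicle and 0.03, -0.14 and -0.04 in diosmetin kidneys. Both vehicle libraries were above all diosmetin libraries, with a gap of under 0.1 between the nearest. For efflux carriers no such gap was seen, and diosmetin replicate 2 was the lowest at -0.09.

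Other cell types varied as well. Of 18 tested collecting duct markers 18 were higher on average in diosmetin kidneys, with a median of 0.35. Of these 15 had an unadjusted p under 0.05, beside 4.68% of all genes tested, and 15 had every diosmetin value above both vehicle values, beside 18.3%. Their summed level was 575 and 669 FPKM in vehicle and 783, 811 and 779 in diosmetin libraries. Of 14 loop and distal tubule markers 13 were higher (median 0.23), and of 12 tubular injury markers 9 (median 0.11, and 0.07 to 0.27 when 1 library was left out).

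The remaining lists turned on single libraries. All 9 podocyte markers were highest in vehicle replicate 2 and 8 were lowest in vehicle replicate 1, with sums of 168 and 331 FPKM in vehicle and 210.1, 202 and 182 in diosmetin libraries. Their median of -0.12 (8 of 9 lower) became 0.29 when vehicle replicate 2 was left out and -0.59 when vehicle replicate 1 was. The immune markers split the vehicle libraries likewise, with sums of 86.3 and 260.3 FPKM in vehicle and 202, 147 and 139 in diosmetin libraries. Their median of 0.14 (9 of 16 higher) became 0.58 when vehicle replicate 2 was left out and -0.52 when vehicle replicate 1 was. The endothelial median of -0.02 (7 of 12 lower) ran from -0.20 without vehicle replicate 1 to 0.17 without vehicle replicate 2. The red cell median of -0.20 (5 of 5 lower) was 0.02 without vehicle replicate 2, 0.05 without diosmetin replicate 1, and -0.85 without diosmetin replicate 2. No adjusted p was under 0.05 in any of these lists, and their part in the transporter differences was not tested.

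Genes that supply the driving forces and partners of organic ion transport were mixed in direction. Of 23 tested (26 listed) 13 were lower and 10 higher on average, with a median of -0.09 (-0.06 without vehicle replicate 1, vehicle replicate 2, diosmetin replicate 2 or diosmetin replicate 3). Slc13a2, which encodes the dicarboxylate carrier NaDC1 that reclaims citrate and other Krebs cycle acids from urine, had the largest difference. It measured 61.0 and 42.5 FPKM in vehicle and 44.3, 26.7 and 34.0 in diosmetin kidneys, a difference of -0.56 ± 0.23 (SE). The adenosine and nucleoside carriers Slc29a1 and Slc29a2 were higher, at 0.31 ± 0.13 (SE) and 0.34 ± 0.12 (SE), and the diosmetin values of Slc29a2 all lay above the vehicle values (2.70 and 2.22 FPKM in vehicle, 2.98, 3.70 and 3.45 in diosmetin). Slc29a2, and Slc17a3 with a difference of -0.22 ± 0.06 (SE), were the 2 of the 23 with an unadjusted p under 0.05, beside 6.37% of all genes tested. Slc17a3, a urate and anion exporter of the urine-side membrane, was picked out after its values were seen.

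Transcription factors and scaffolds of renal transporters were balanced, with 10 of 23 tested lower, 13 higher and a median of 0.02. The median was -0.05 when either vehicle library was left out. Ppara, the fatty acid sensor of proximal tubule and liver, measured 53.1 and 35.6 FPKM in vehicle and 38.6, 28.7 and 28.4 in diosmetin kidneys, a difference of -0.45 ± 0.20 (SE). Bcl6, a repressor reported to take part in the sex-biased expression of renal OATs in rodents, differed by -0.46 ± 0.33 (SE). Ahr, the receptor for dioxin and other aromatic compounds, differed by 0.28 ± 0.12 (SE). Nfe2l2 encodes NRF2, an activator of several MRP genes, and was the 1 of these 23 genes with an unadjusted p under 0.05, beside 6.37% of all genes tested. It measured 44.7 and 48.3 FPKM in vehicle and 60.2, 55.4 and 51.6 in diosmetin kidneys, a difference of 0.25 ± 0.08 (SE), and was named after its values were seen.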

How the data were processed

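Kidney RNA was sequenced after ribosomal RNA removal as 5 stranded paired-end libraries, per the labels' protocols. The authors deposited FPKM values for 21878 genes, scaled to transcript length and library total. Per the submitters' processing notes, GRCm38 was the genome build; for the aligner, counter, annotation release, use of strand and batch, nothing was given in the sources used here. Columns were matched to samples by code, and groups came from the treatment label.

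Genes with a mean of at least 0.5 FPKM (13290) were fitted on log2(FPKM + 1) with limma 3.58.1 (R 4.3.3), with eBayes trend, no covariate and 3 residual degrees of freedom; the scripts were tested on simulated data. Depth was estimated from the step between low FPKM values, and no count test was run on these estimates. Called members were read against the share of all genes tested, with no test over the list. Per-library values were given for the 12 most abundant transporters, those at an unadjusted p under 0.05 and the main renal carriers; Slc22a29 was added after its values were seen, and some members are counted but not reported by name here. Of other genes, up to 3 per list with the largest difference could be named. The members and gene lists were chosen with earlier results of these data known. Marker lists for liver (5 of 7 tested lower, median -0.24), androgen response (4 of 7, -0.07), adrenal (1 tested, -0.14) and adipocyte (0 tested) were also run; without vehicle replicate 1 the liver median was -0.03 and the androgen median 0.21. Gene positions, and promoter windows for 53 members, came from RefSeq GRCm38.p6, and shared 75-base stretches from GENCODE transcripts. Other pseudocounts, filters, scalings and fits, and leaving out each library, were tried.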

Additional observations from a re-analysis of the deposited data

How the results depend on the processing

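The count of genes past an adjusted p of 0.05 stayed at 0 under every alternative run. Transporters at an unadjusted p under 0.05 by limma numbered 5, beside 847 of 13290 genes tested. Without diosmetin replicate 1 they numbered 11, beside 1193 of 13295 genes. Without diosmetin replicate 2 they numbered 3, beside 385 of 13268 genes. Transporters with no overlap between groups, in either direction, numbered 8. They numbered 12 under median-of-ratios scaling and 12 after quantile normalization. Without diosmetin replicates 1, 2 and 3 they numbered 21, 9 and 16, and the number also rose when either vehicle library was left out. Fewer libraries make separation easier, and no share of all genes is given for these settings. The uptake median of -0.24 was -0.16 with no filter on low values, and -0.27 to -0.13 when 1 library was left out. The uptake minus efflux difference of -0.22 was -0.15 with no filter, -0.26 at a mean of at least 1 FPKM, -0.18 after quantile normalization, -0.29 with the restricted classes, and -0.23 to -0.13 when 1 library was left out. It was negative in every alternative. The efflux median stayed between -0.07 and -0.00. 25 tested transporters, 20 of them uptake carriers, were lower under every alternative that tested them, with no share of all genes at hand. The other filters and the fit without trend leave a gene's difference unchanged, so these could not change a sign. Of 22 named and tested transporters, some of them named for a small unadjusted p by limma, 17 never changed direction. Abcb1a (0.02) was -0.031 under median-of-ratios scaling and -0.028 after quantile normalization and ranged from -0.11 to 0.15 when 1 library was left out. Leaving out 1 library gave ranges of -0.073 to 0.18 for Abcb1b, -0.11 to 0.31 for Abcc4, -0.030 to 0.26 for Slco2a1 and -0.11 to 0.40 for Slco4c1, each with a change of sign. The cause was not tested. Over all genes, 622 of 847 at an unadjusted p under 0.05 were higher, against 388 of 777 under median-of-ratios scaling and 268 of 813 without vehicle replicate 1; their number was 1464 without vehicle replicate 2 and 385 without diosmetin replicate 2. Leaving out a vehicle library leaves 1 sample in that group, which is then assumed to vary like the diosmetin libraries. No paired analysis was possible because replicate numbers were given in accession order and pair nothing. With 2 against 3 libraries an exact permutation test of 1 gene could not go below 0.1.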

Other observations

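Of the 22 transporters under the filter, 4 are given here by their values, which are low and uncertain. Slco1a5, an OATP of intestine and kidney, measured 0.444 and 0.320 FPKM in vehicle and 0.0553, 0.0603 and 0.156 in diosmetin kidneys. Every diosmetin value of Slco1a5 lay below both vehicle values, an ordering that 6.17% of the tested genes of the table shared. Its libraries held an estimated 6.67 to 43.9 fragments, and its mean of 0.207 FPKM did not reach the filter on low values. Slc22a3 (OCT3) measured 0.260 and 0.288 FPKM in vehicle and 0.292, 0.571 and 0.411 in diosmetin kidneys. Abcb4, the phosphatidylcholine floppase, measured 0.217 and 0.250 FPKM in vehicle and 0.356, 0.548 and 0.338 in diosmetin kidneys. In both genes all diosmetin values lay above both vehicle values, an ordering that 18.3% of the tested genes of the table shared. Abcg3 was uneven within both groups, at 0.123 and 0.842 FPKM in vehicle and 0.649, 0.122 and 0.151 in diosmetin kidneys. These 4 genes were picked out after their values were seen.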
